A study of Mus musculus with 19 samples.

Results

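Projection neurons of mouse neocortex at postnatal day 6 (P6) were set against the same neurons at postnatal day 3 (P3), in a callosal type (CPN, callosal projection neurons) and a corticospinal type (CSMN, the motor neurons that project to the spinal cord). Members were the arrays titled P6 or P3 for these types: 2 of P6 CPN, 2 of P6 CSMN, 2 of P3 CPN and 3 of P3 CSMN, together 9 of the 19 arrays of the series. The remaining arrays held both types at embryonic day 18 (E18) and postnatal day 14 (P14), and corticotectal neurons at P14. All neurons came from C57BL/6 mice without a stated allele or treatment. Per the labels they were marked by green fluorescent microspheres carried back along the axon (the labels name sensorimotor cortex for both types), and sorted by fluorescence into RNAlater. Replicates were separate biological collections per the labels, which do not give the number of animals in a collection. RNA was amplified in consecutive rounds of in vitro transcription and hybridised to Affymetrix Mouse Genome 430 2.0 arrays. A microsphere marks where an axon reaches and does not exclude other cells from the sort.

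CPN join the hemispheres through the corpus callosum, and CSMN send the axons that reach the spinal cord. In the first postnatal week such neurons extend dendrites and form their first synapses. Glutamate is loaded into their vesicles by the VGLUT transporters, and extrusion of chloride by KCC2 (Slc12a5) lowers the chloride inside the cell, which sets the direction of GABA currents. SoxC factors (Sox4 and Sox11) are expressed strongly in young neurons and decline as neurons mature.

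Values are log2 expression after the authors' RMA, so a difference of 1 is a 2-fold change of the probe signal. Each gene is given by its brightest probe set with 1 symbol, for 18193 genes, and differences are P6 minus P3 with neuron type as a covariate, ± the standard error (SE) of the limma model. Array medians ran from 6.43 to 6.51 at P6 and from 6.44 to 6.53 at P3. The types kept their labelled markers: Bcl11b, a factor CSMN need, read 12.47 and 12.36 in P6 CSMN and 12.62, 12.60 and 12.23 in P3 CSMN, above every CPN array. In CPN, Bcl11b read 7.19 and 8.36 in P6 CPN, against 10.46 and 9.80 in P3 CPN, and Crym, another corticospinal gene, read 5.24 and 6.77 in P6 CPN, against 8.38 and 7.62 in P3 CPN. The P3 CPN arrays were the higher ones in both genes. Cux2, an upper-layer factor, read 11.13 and 10.61 in P6 CPN and 9.97 and 9.85 in P3 CPN, above every CSMN array, of which replicate 3 of P3 CSMN was the highest at 9.23. The 2 P6 CPN arrays correlated at 0.979 over genes, less well than either did with the P3 CPN arrays (0.982 to 0.988). The difference of 3' and 5' Gapdh control probes, a sign of RNA length, was 2.07 to 2.78 at P6 and 1.73 to 2.64 at P3. Within CSMN the ages did not overlap, at 2.20 and 2.07 at P6 against 1.73, 2.02 and 1.88 at P3. In CPN they overlapped, at 2.09 and 2.78 at P6 against 2.47 and 2.64 at P3. The same difference of the Actb control probes overlapped between the ages in both types. In CSMN it was 1.02 and 0.71 at P6 against 0.72, 0.58 and 0.80 at P3. The part of RNA length in the results was not tested.

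Between the stages 88 genes passed the test (limma, adjusted p under 0.05), which is 0.484% of the genes tested: 60 were higher at P6 (0.33%) and 28 lower (0.154%). Those that rose included the glutamate transporter genes Slc17a6 and Slc17a7, the chloride transporter gene Slc12a5 and the Ras activator Rasgrp1. Those that fell included the cell cycle inhibitor Cdkn1c, the neuropeptide Npy and 3 Sox factors. The change was modest in size: 15 genes rose and 6 fell by at least 1 on the log2 scale, and the median difference was 0.80 among the 60 and -0.81 among the 28. In all 88 genes every P6 array lay beyond every P3 array of the same type, in the same direction in CPN and CSMN. The test was run on these same values, so this is a description of the called genes and no support for them. Across all genes it held for 3.72% upward and 4.27% downward. With so few arrays the count rested on single libraries. It was 0 without replicate 1 of P3 CPN, 0 without either replicate of P6 CSMN, 10 without replicate 2 of P3 CPN, 27, 22 and 71 without replicates 1, 2 and 3 of P3 CSMN, and 95 and 175 without replicates 1 and 2 of P6 CPN. The choice of probe set also mattered: when a gene was given by the average of its probe sets 18 of the 28 leading named genes still passed, all in the direction reported, and without probe sets marked for cross-hybridization 20 of the 26 that could be fitted did.

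**Figure D1:**
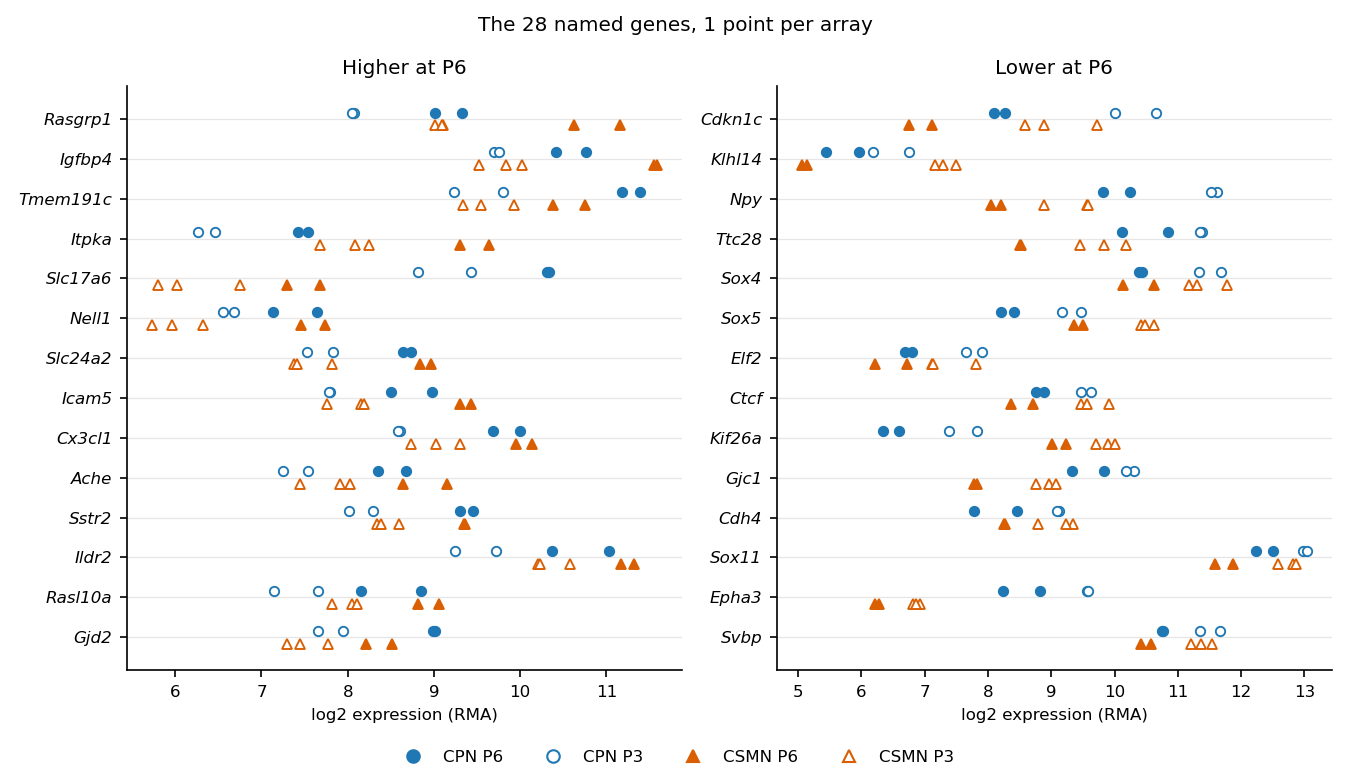
Log2 expression (RMA, horizontal axis) of the 14 named genes that rose (left) and the 14 that fell (right), 1 point per array, filled for P6 and open for P3, circles for CPN and triangles for CSMN. Within a type the filled and open points do not overlap for any gene, while CPN and CSMN levels lie far apart for some genes, such as Slc17a6 and Epha3.

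The vesicular glutamate transporter genes Slc17a6 and Slc17a7 both rose. Slc17a6, which encodes VGLUT2, read 10.34 and 10.31 in P6 CPN and 7.68 and 7.29 in P6 CSMN, against 8.82 and 9.43 in P3 CPN and 6.02, 5.80 and 6.75 in P3 CSMN. It was 2.39-fold higher at P6 (1.25 ± 0.20, limma adjusted p = 0.0367), and its level in CPN stood well above that in CSMN at both ages. When its probe sets were averaged the difference was 0.91 (adjusted p = 0.166). Slc17a7, which encodes VGLUT1, the main vesicular transporter of mature cortical projection neurons, read 7.80 and 7.59 in P6 CPN and 7.68 and 7.87 in P6 CSMN, against 6.90 and 7.14 in P3 CPN and 7.11, 6.93 and 6.64 in P3 CSMN. Here the levels of the 2 types overlapped, and every P6 array was above every P3 array (0.78 ± 0.12, adjusted p = 0.032). Sv2b, a synaptic vesicle glycoprotein, read 11.21 and 10.81 in P6 CPN and 11.10 and 11.44 in P6 CSMN, against 9.93 and 10.01 in P3 CPN and 10.36, 10.54 and 10.37 in P3 CSMN. It rose by 0.94 ± 0.11 (adjusted p = 0.0142), again with no overlap between the ages. The chloride transporter Slc12a5 was among the tightest of the genes that rose, at 11.69 and 11.90 in P6 CPN and 11.87 and 11.77 in P6 CSMN, against 11.17 and 11.23 in P3 CPN and 11.10, 11.11 and 11.13 in P3 CSMN. The P6 arrays of the types lay together above the P3 arrays, 1.58-fold higher (0.66 ± 0.079, adjusted p = 0.0142). Averaged over its probe sets the difference was 0.31 (adjusted p = 0.0791). Slc12a2, the transporter that brings chloride in, differed by 0.04 ± 0.12 and did not pass (adjusted p = 0.952). That value turned to -0.28 with the mean of all its probe sets, to -0.04 with array weights and to -0.05 without replicate 3 of P3 CSMN.

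The promoters of 4 genes are shown, of a glutamate and a chloride transporter that rose and of the SoxC factors that fell. Each is the 300 bases around the start of the gene, most of them before it, in the RefSeq annotation of build GRCm38.p6, on the strand of the gene. Slc17a7 is at chr7:45163671-45163970 (+ strand), Slc12a5 at its first listed start of 2 at chr2:164960596-164960895 (+), Sox4 at chr13:28953650-28953949 (-) and Sox11 at chr12:27342669-27342968 (-). Capitals mark matches on either strand to the GC box GGGCGG, a site of SP1 family factors, or to the E-box CAGCTG, a site of basic helix-loop-helix factors. TGACGTCA (the cAMP response element), GCGTGGGCG (an EGR site) and the NRF1 site were also searched and had no match in these 4. These motifs were chosen with the values known, and the neighbouring GC boxes of Slc17a7 share a base.
Slc17a7: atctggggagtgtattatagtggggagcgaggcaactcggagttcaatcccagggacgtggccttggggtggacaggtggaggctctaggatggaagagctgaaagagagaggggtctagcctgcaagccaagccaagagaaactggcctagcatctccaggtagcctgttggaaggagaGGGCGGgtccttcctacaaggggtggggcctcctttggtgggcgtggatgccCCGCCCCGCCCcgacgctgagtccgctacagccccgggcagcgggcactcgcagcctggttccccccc
Slc12a5: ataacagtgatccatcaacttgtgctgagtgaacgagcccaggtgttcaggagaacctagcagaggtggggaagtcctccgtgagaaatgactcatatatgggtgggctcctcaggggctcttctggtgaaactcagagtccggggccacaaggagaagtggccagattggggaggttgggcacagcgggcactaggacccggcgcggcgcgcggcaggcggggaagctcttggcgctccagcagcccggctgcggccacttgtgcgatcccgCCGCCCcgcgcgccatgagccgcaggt
Sox4: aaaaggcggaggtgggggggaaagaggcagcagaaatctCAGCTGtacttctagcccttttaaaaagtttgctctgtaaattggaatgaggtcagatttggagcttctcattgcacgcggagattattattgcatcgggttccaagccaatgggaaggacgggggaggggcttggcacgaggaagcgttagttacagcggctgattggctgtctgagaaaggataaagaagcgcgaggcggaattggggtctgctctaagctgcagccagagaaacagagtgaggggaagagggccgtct
Sox11: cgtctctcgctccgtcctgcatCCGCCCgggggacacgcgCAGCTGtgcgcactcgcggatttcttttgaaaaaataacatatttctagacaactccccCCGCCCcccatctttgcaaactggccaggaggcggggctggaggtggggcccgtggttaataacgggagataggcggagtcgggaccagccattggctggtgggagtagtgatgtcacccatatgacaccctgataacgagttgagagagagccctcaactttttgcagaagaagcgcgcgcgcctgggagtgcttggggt
Slc17a7 held 3 GC boxes and Slc12a5 held 1, Sox11 held 2 and an E-box, and Sox4 held 1 E-box. Promoters were listed for 45 of the 60 genes that rose, of which 33 (73.3%) held a GC box. They were listed for 23 of the 28 that fell, of which 20 (87%) did. Of all 14452 genes with a listed promoter, 57.3% did. A gene was counted when any of its listed starts had a match. The E-box was found in 22.2% of such genes that rose, in 21.7% of those that fell and in 18.8% of all.

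Rasgrp1, an exchange factor that activates Ras in response to diacylglycerol and calcium, read 9.33 and 9.01 in P6 CPN and 11.16 and 10.63 in P6 CSMN, against 8.07 and 8.05 in P3 CPN and 9.01, 9.10 and 9.09 in P3 CSMN. It had the largest difference of the 60, 1.50 ± 0.16, or 2.83-fold (adjusted p = 0.0104), and 0.47 (adjusted p = 0.0554) with the mean of its probe sets. Itpka, an inositol trisphosphate kinase of dendritic spines that also binds actin, read 7.54 and 7.42 in P6 CPN and 9.64 and 9.31 in P6 CSMN, against 6.27 and 6.46 in P3 CPN and 8.25, 7.68 and 8.08 in P3 CSMN. It rose 2.48-fold (1.31 ± 0.14, adjusted p = 0.01), with CSMN at P3 already above CPN at P6. Slc24a2, a potassium-dependent sodium and calcium exchanger, read 8.73 and 8.65 in P6 CPN and 8.97 and 8.83 in P6 CSMN, against 7.53 and 7.83 in P3 CPN and 7.82, 7.38 and 7.42 in P3 CSMN. The types had like levels at each age, and P6 was 2.30-fold higher (1.20 ± 0.13, adjusted p = 0.01). Rasl10a, a small GTPase of the Ras family, differed by 1.02 ± 0.16 (adjusted p = 0.0367), and Sstr2, a receptor for somatostatin, by 1.05 ± 0.10 (adjusted p = 0.01). Sstr2 at P6 was nearly level across the types, at 9.31 and 9.45 in CPN and 9.34 and 9.36 in CSMN.

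Icam5 (telencephalin), an adhesion protein of forebrain dendrites, read 8.50 and 8.98 in P6 CPN and 9.43 and 9.30 in P6 CSMN, against 7.80 and 7.78 in P3 CPN and 8.15, 7.76 and 8.19 in P3 CSMN, a rise of 1.16 ± 0.14 (adjusted p = 0.0142). Cx3cl1, the neuronal chemokine read by the microglial receptor Cx3cr1, read 9.996 and 9.69 in P6 CPN and 9.95 and 10.13 in P6 CSMN, against 8.60 and 8.58 in P3 CPN and 9.31, 9.02 and 8.73 in P3 CSMN, a rise of 1.12 ± 0.13 (adjusted p = 0.0139). In both genes the P6 arrays of the types together lay above all P3 arrays. Igfbp4, which binds insulin-like growth factors and is also one of the corticospinal identity genes, read 10.76 and 10.42 in P6 CPN and 11.59 and 11.55 in P6 CSMN, against 9.70 and 9.75 in P3 CPN and 10.02, 9.83 and 9.52 in P3 CSMN. The rise of 1.36 ± 0.19 (adjusted p = 0.0229) was 1.77 in CSMN and 0.87 in CPN, a difference that did not pass over all genes (limma interaction, adjusted p = 0.701). Ache, the enzyme that breaks down acetylcholine, differed by 1.11 ± 0.15, the secreted protein Nell1 by 1.22 ± 0.20, Ildr2 by 1.05 ± 0.16 and Tmem191c by 1.33 ± 0.20 (adjusted p = 0.0229, 0.0367, 0.0355 and 0.0339). Without probe sets marked for cross-hybridization Tmem191c gave 0.12 (adjusted p = 0.859). Outside the naming rule, and picked after their values were seen, Lgi1 and its receptor Adam22 both rose, by 0.86 ± 0.1 and 0.61 ± 0.10 (adjusted p = 0.0139 and 0.0416). This secreted protein and its receptor organise the synapse, as does C1ql3, which rose by 0.99 ± 0.12 (adjusted p = 0.0147). With the mean of its probe sets Adam22 gave 0.32 (adjusted p = 0.17) and C1ql3 0.52 (adjusted p = 0.112). Thy1, a surface protein of mature projection neurons, read 10.93 and 11.45 in P6 CPN and 12.77 and 12.55 in P6 CSMN, against 10.24 and 10.008 in P3 CPN and 11.88, 11.94 and 11.66 in P3 CSMN and rose by 0.94 ± 0.13 (adjusted p = 0.0229).

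A pair of gap junction genes moved in opposite directions. Gjd2, the main connexin of neurons, read 8.99 and 9.01 in P6 CPN and 8.52 and 8.21 in P6 CSMN, against 7.65 and 7.94 in P3 CPN and 7.78, 7.30 and 7.44 in P3 CSMN, and rose by 1.01 ± 0.13 (adjusted p = 0.0206). Gjc1, another connexin, read 9.32 and 9.83 in P6 CPN and 7.78 and 7.82 in P6 CSMN, against 10.31 and 10.19 in P3 CPN and 8.97, 8.76 and 9.08 in P3 CSMN, and was lower by 0.93 ± 0.14 (-0.93, adjusted p = 0.0306). The fall of Gjc1 rested on its probe set, since with probe sets marked for cross-hybridization left out the gene was given by another one, whose difference was 0.12 (adjusted p = 0.895).

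Cdkn1c had the largest difference of all called genes. This inhibitor of cyclin-dependent kinases (p57) holds cells out of the cycle and also acts in migrating cortical neurons. It read 8.09 and 8.26 in P6 CPN and 6.75 and 7.12 in P6 CSMN, against 10.65 and 10.004 in P3 CPN and 9.72, 8.88 and 8.58 in P3 CSMN. P6 was 4.40-fold lower (-2.14 ± 0.23, adjusted p = 0.01), with -2.15 in CPN and -2.13 in CSMN. Its spread between replicates was also wide, from 8.58 to 9.72 among P3 CSMN arrays, and P6 CPN arrays lay just below the lowest of them. 

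The Sox factors Sox4, Sox11 and Sox5 were called lower at P6. Sox4 read 10.39 and 10.44 in P6 CPN and 10.14 and 10.63 in P6 CSMN, against 11.69 and 11.34 in P3 CPN and 11.77, 11.18 and 11.30 in P3 CSMN, 2.09-fold lower at P6 (-1.06 ± 0.15, adjusted p = 0.024). Sox11, a close relative of Sox4, read 12.50 and 12.23 in P6 CPN and 11.59 and 11.87 in P6 CSMN, against 12.97 and 13.04 in P3 CPN and 12.82, 12.87 and 12.58 in P3 CSMN, 1.80-fold lower (-0.85 ± 0.12, adjusted p = 0.024). For both SoxC factors all P6 arrays of either type lay below all P3 arrays. Sox5, a SoxD factor that times the birth and migration of deep-layer projection neurons, read 8.41 and 8.21 in P6 CPN and 9.50 and 9.35 in P6 CSMN, against 9.47 and 9.18 in P3 CPN and 10.62, 10.42 and 10.48 in P3 CSMN. It differed by -1.05 ± 0.096 (adjusted p = 0.01), with a higher level in CSMN at both ages. The calls of Sox4 and Sox5 depended on the choice of probe sets. Their brightest probe sets ended in _a_at, a mark for several transcripts of a gene. The other probe sets ran from -1.15 to 0.16 in Sox4 and from -1.17 to -0.06 in Sox5. Without probe sets marked for cross-hybridization Sox4 gave -0.47 (adjusted p = 0.449) and Sox5 -0.56 (adjusted p = 0.337), and with the mean of all its probe sets Sox4 gave -0.47 (adjusted p = 0.0677), while Sox5 still passed at -0.56 (adjusted p = 0.0091). Ctcf, the factor that anchors chromatin loops, fell by 0.94 ± 0.13 (adjusted p = 0.024), and gave -0.59 (adjusted p = 0.103) with the mean of its probe sets. Elf2, an ETS family factor, read -0.96 ± 0.17 (adjusted p = 0.0459), but 0.05 (adjusted p = 0.898) when probe sets marked for cross-hybridization were left out. The brightest probe set of Elf2 also ended in _a_at.

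Epha3, an ephrin receptor of growing axons on the callosal identity list, read 8.24 and 8.82 in P6 CPN and 6.28 and 6.21 in P6 CSMN, against 9.56 and 9.59 in P3 CPN and 6.82, 6.93 and 6.87 in P3 CSMN. It fell by 0.82 ± 0.13 (adjusted p = 0.0367), and CPN stayed above CSMN at both ages. Its probe sets averaged -0.43 (adjusted p = 0.103). Cdh4 (R-cadherin), a homophilic adhesion protein, fell by 0.92 ± 0.15, Kif26a, an atypical kinesin, by 0.93 ± 0.14, and Svbp, the partner of the vasohibins that remove tyrosine from tubulin, by 0.81 ± 0.10 (adjusted p = 0.0416, 0.0283 and 0.0174). Ttc28 fell by 1.11 ± 0.18 and Klhl14 by 1.56 ± 0.27 (adjusted p = 0.0416 and 0.0459). Klhl14 was dim, at 5.95 and 5.43 in P6 CPN and 5.14 and 5.06 in P6 CSMN, against 6.19 and 6.75 in P3 CPN and 7.49, 7.29 and 7.17 in P3 CSMN, and its CPN arrays lay below or near the array medians. Outside the naming rule, and picked after their values were seen, St8sia4, which adds polysialic acid to the adhesion molecule NCAM, fell by 0.74 ± 0.11, and Skp2, a subunit of the ligase that marks cell cycle inhibitors for degradation, by 0.81 ± 0.14 (adjusted p = 0.0315 and 0.0459). With the mean of its probe sets St8sia4 gave -0.42 (adjusted p = 0.0563), and Skp2 gave -0.14 (adjusted p = 0.892) without probe sets marked for cross-hybridization. The brightest probe set of Skp2 ended in _a_at, a mark for several transcripts of a gene.

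Both neuropeptide genes among the called genes were on the list of cortical interneuron markers. Npy read 9.81 and 10.25 in P6 CPN and 8.21 and 8.05 in P6 CSMN, against 11.63 and 11.52 in P3 CPN and 9.57, 8.88 and 9.58 in P3 CSMN, and was 2.57-fold lower at P6 (-1.36 ± 0.17, adjusted p = 0.0142). Cck read 11.26 and 11.53 in P6 CPN and 11.04 and 10.74 in P6 CSMN, against 10.40 and 10.57 in P3 CPN and 10.37, 10.003 and 9.991 in P3 CSMN, and was 1.78-fold higher (0.83 ± 0.12, adjusted p = 0.024). CPN exceeded CSMN in Npy at both ages, without overlap. Of the 18 measured interneuron markers, whose median difference was -0.14, 3 had all P6 arrays below all P3 arrays in both types (Npy, Reln and Dlx1) and 1 had them above (Cck). These are 16.7% and 5.56%, beside 4.27% and 3.72% of all genes. Their median level was 5.81 to 6.65 in P6 CPN and 5.88 to 6.21 in P6 CSMN, against 6.96 to 7.08 in P3 CPN and 5.99 to 6.79 in P3 CSMN. Dlx1, Nxph1 and Lhx6, defining genes of cortical interneurons, differed by -0.80, -1.04 and -0.57 without passing (adjusted p = 0.29, 0.377 and 0.433). The mean of 10 of the 18 lay below the array medians. The part of interneurons in the Npy and Cck values was not tested, and in sorted bulk RNA fewer cells of a type and less RNA per cell cannot be told apart.

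Among 34 lists of related genes, the cytosolic ribosomal protein genes had the largest share of members without overlap between the ages. Of 33 measured cytosolic ribosomal protein genes, 18 had all P6 arrays below all P3 arrays in both types, beside 4.27% of all genes, and none had them above. None passed the test, the lowest adjusted p being 0.0567, while 23 had an unadjusted p under 0.05. Differences ran from -0.73 (Rps15) to 0.22 (Rpl12), 32 of the 33 were below 0, and the median was -0.33, beside -0.02 over all genes. By array, the median level of the list was 12.07 and 12.18 in P6 CPN and 12.13 and 12.14 in P6 CSMN, against 12.80 and 12.60 in P3 CPN and 12.50, 12.51 and 12.51 in P3 CSMN. The ages did not overlap, and replicates of a group differed by less than the ages did. Rplp0, of the ribosomal stalk, differed by -0.56 ± 0.10, Rps19 by -0.62 ± 0.11 and Rpl11 by -0.47 ± 0.09. Ribosomal protein genes have many processed copies in the genome, so their probe sets may share signal.

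**Figure D2:**
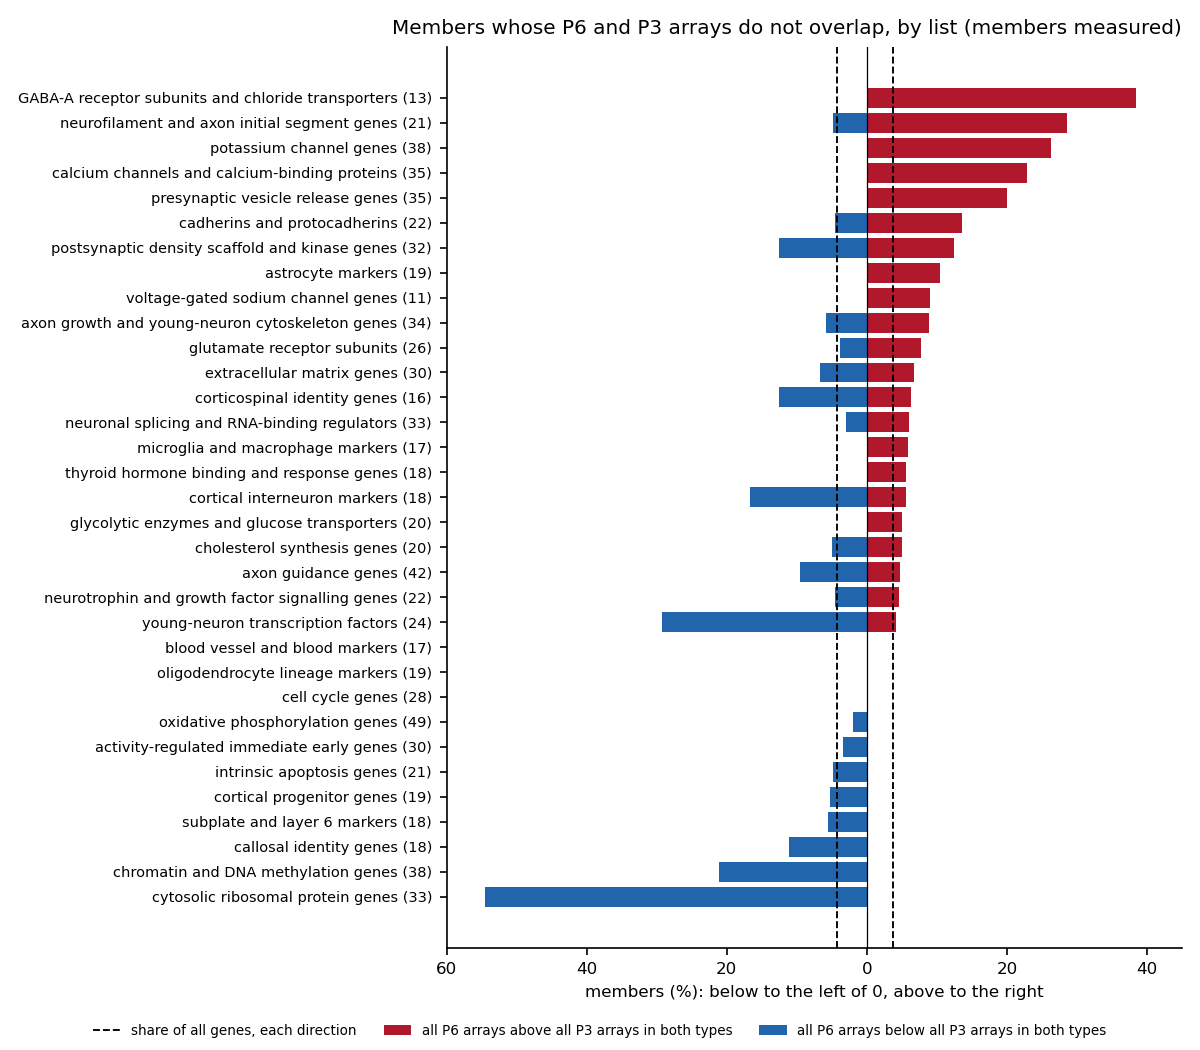
Percent of the measured members of each list but the sex-linked genes (number in brackets) whose P6 arrays all lay above (right, red) or all below (left, blue) the P3 arrays in both neuron types, with dashed lines at the share of all genes (3.72% and 4.27%). Ribosomal protein genes reach farthest to the left, with 18 of 33, and GABA-A receptor and chloride transporter genes farthest to the right, with 5 of 13.

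Several synaptic and channel lists had more members without overlap upward than downward, beside 3.72% upward and 4.27% downward over all genes. Of 35 presynaptic release genes 3 were called higher (Slc17a6, Sv2b and Slc17a7), none lower, and 7 did not overlap upward, with a median of 0.26. Synaptic vesicle and fusion proteins named outside the rule gave 0.67 ± 0.19 for Snap25 and 0.58 ± 0.16 for Syp, neither past the test (adjusted p = 0.189 and 0.173). All 13 GABA-A receptor and chloride transporter genes had differences above 0, with 1 called (Slc12a5), 5 not overlapping upward and a median of 0.35. Gabra4, a receptor subunit that comes on after birth, read 10.27 and 9.59 in P6 CPN and 10.05 and 9.65 in P6 CSMN, against 9.23 and 9.42 in P3 CPN and 8.77, 8.32 and 8.26 in P3 CSMN and differed by 1.04 ± 0.21 (adjusted p = 0.0777). Of 38 potassium channel genes 10 did not overlap upward and none downward, with a median of 0.25 and none past the test over both types. The members nearest to it were Kcnf1 at 0.97 ± 0.19 and Kcnj3, the GIRK1 subunit, at 0.54 ± 0.097 (adjusted p = 0.0774 and 0.0546). Kcnq3 and Kcnq5, subunits of the M current, were among the 10, at 0.43 and 0.49. The step of Kcnq3 was 0.62 in CSMN and 0.20 in CPN, and that of Kcnq5 was 0.18 and 0.86. Kcna1, another potassium channel gene, passed in CSMN alone, at 1.20 ± 0.14 (limma adjusted p = 0.0355), and gave 0.21 in CPN. None of these differences between the types passed the interaction test. Of 35 calcium channel and calcium-binding genes 1 was called (Itpka) and 8 did not overlap upward, with a median of 0.18, Vsnl1 (visinin-like 1) giving 0.81 ± 0.17 (adjusted p = 0.0895). Of 21 neurofilament and axon initial segment genes 1 was called, the tubulin gene Tuba4a at 0.82 ± 0.12 (adjusted p = 0.024), and 6 did not overlap upward.

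Other synaptic lists gave smaller values. Of 26 glutamate receptor genes none was called, and the median was 0.03. Gria1, an AMPA receptor subunit, gave 0.64 ± 0.17 (adjusted p = 0.159), while Grin2b, an NMDA receptor subunit, gave -0.08 ± 0.12. Of 32 postsynaptic density genes none was called, with a median of 0.03. In each direction 4 (12.5%) did not overlap, beside 3.72% upward and 4.27% downward over all genes. Of 11 sodium channel genes none was called, with a median of 0.16, and Scn8a, the channel of the mature initial segment, gave 0.47 ± 0.14 (adjusted p = 0.218).

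Lists of young-neuron and chromatin regulators had more members without overlap downward than upward. Over all genes the shares were 3.72% upward and 4.27% downward. The upward shares of young-neuron factors (4.17%) and guidance genes (4.76%) and the downward share of cadherins (4.55%) were near these. Of 24 young-neuron transcription factors 2 were called lower (Sox4 and Sox11), none higher, 1 did not overlap upward and 7 downward, with a median of -0.22. The median level of this list overlapped between the ages, at 10.46 and 10.18 in P6 CPN and 10.40 and 10.66 in P6 CSMN, against 10.65 and 10.53 in P3 CPN and 10.44, 10.60 and 10.58 in P3 CSMN. Foxp1 gave -0.56 ± 0.13 and Tcf4 -0.32 ± 0.085, while Klf9, a factor induced by thyroid hormone, gave 0.85 ± 0.19 (adjusted p = 0.108, 0.157 and 0.112). Of 38 chromatin genes none was called and 8 did not overlap downward, with a median of -0.15. Ezh2, the methyltransferase of Polycomb complex 2, gave -0.61 ± 0.12, and Smarcd3, a BAF complex subunit, -0.55 ± 0.11 (adjusted p = 0.0759 and 0.0807). By contrast the median of 34 axon growth and cytoskeleton genes was 0.00, with none called. Gap43, a growth cone protein, gave -0.12 ± 0.083, and Dcx, a microtubule protein of migrating neurons, -0.24 ± 0.14. Guidance genes were mixed: of 42, 1 was called (Epha3), 2 did not overlap upward and 4 downward, the median was 0.05, and those below included Dcc, the netrin receptor, at -0.79 ± 0.19 and Robo1, a Slit receptor, at -0.66 ± 0.16 (adjusted p = 0.124 and 0.126). Of 22 cadherins 1 was called lower (Cdh4), 3 did not overlap upward and 1 downward, and the median was 0.07.

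The remaining lists had few or no calls. Immediate early genes (30, median 0.05), oxidative phosphorylation (49, -0.06), glycolysis (20, 0.15), cholesterol synthesis (20, 0.04), extracellular matrix (30, 0.04), apoptosis (21, -0.07), thyroid hormone response (18, 0.09) and RNA-binding regulators (33, -0.10) had none. Growth factor signalling had 1 called of 22 (Igfbp4), with a median of 0.00. Among identity genes, 16 of CSMN had 1 called higher (Igfbp4) and 1 lower (Sox5), with a median of -0.08, and 18 of CPN had 1 lower (Epha3), with a median of -0.12. The median level of the corticospinal list was 8.44 and 8.42 in P6 CPN, below 9.10 and 8.83 in P3 CPN. That of the callosal list was 10.05 and 9.83 in P6 CPN, above 9.60 and 9.71 in P3 CPN. In CSMN the ages overlapped in both lists. Of the lists of other cells, cell cycle genes (28, median -0.06), progenitor (19, -0.03), astrocyte (19, 0.26), oligodendrocyte (19, -0.09), microglia (17, 0.35), vessel (17, -0.13) and subplate (18, -0.05) markers had none called. In CPN the median levels of the cell cycle, progenitor, vessel and subplate lists were lower at P6 without overlap, while in CSMN the ages overlapped. Progenitor markers read 6.65 and 7.22 in P6 CPN against 7.84 and 7.68 in P3 CPN. Subplate markers read 7.02 and 7.35 against 7.97 and 7.87. Vessel markers read 5.89 and 6.43 against 6.49 and 6.52, and cell cycle genes 6.37 and 6.44 against 6.57 and 6.51. Of 8 measured sex-linked genes, which vary with the sex of the animals collected, none was called or free of overlap between the ages in both types. In CPN their median level was 7.26 and 7.72 at P6, below 8.15 and 7.998 at P3. In CSMN the ages overlapped. The part of sex in the results was not tested. Of the microglia markers 15 of 17 had differences above 0, and the median difference was 0.80 in CSMN and -0.07 in CPN. Their median level was 7.20 and 8.18 in P6 CSMN and 7.16 and 7.28 in P6 CPN, against 7.07, 6.81 and 6.98 in P3 CSMN and 7.23 and 7.39 in P3 CPN, highest in replicate 2 of P6 CSMN and without overlap between the ages in CSMN. Ctss, a lysosomal protease of microglia, gave 1.06 ± 0.39 (adjusted p = 0.349). Of the astrocyte markers 15 of 19 had differences above 0, with a median of 0.67 in CSMN and -0.30 in CPN. Their median level was 7.61 and 7.59 in P6 CSMN and 6.80 and 7.52 in P6 CPN, against 7.37, 6.86 and 7.16 in P3 CSMN and 7.76 and 7.56 in P3 CPN. The ages did not overlap in either type, with P6 above in CSMN and below in CPN. The part of other cells in any result was not tested.

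The 2 types were also compared on their own arrays. In CSMN 29 genes passed (0.159% of all genes), 23 higher (0.126%) and 6 lower (0.033%), of which 16 were also called over both types. In CPN 2 passed (0.011%), both higher, and neither was called over both types. At an unadjusted p under 0.05 there were 1446 genes in CSMN (7.95%) and 1261 in CPN (6.93%). The CSMN count ran from 0 to 130 when 1 of the 9 arrays was left out, and was 0 without replicate 1 or 2 of P3 CSMN, replicate 2 of P6 CSMN, or either P3 CPN array. That of CPN was 132 without replicate 2 of P6 CPN, 0 without replicate 2 of P3 CPN and at most 3 without any other array. The groups also differed in spread, the median SD over genes being 0.16 in P6 CPN, 0.07 in P6 CSMN, 0.08 in P3 CPN and 0.18 in P3 CSMN.

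The leading gene in CPN was Gpr6, a G protein-coupled receptor with high basal activity, at 8.35 and 8.37 in P6 CPN, against 5.42 and 5.22 in P3 CPN. In CSMN it read 5.05 and 5.31 in P6 CSMN, against 4.70, 4.30 and 5.06 in P3 CSMN. The CPN step was 3.04 ± 0.22 (adjusted p = 0.00721). In P3 CPN and on every CSMN array this gene read below the median of the array, and the step is taken from a signal that dim. Ramp3, a partner of the calcitonin receptor family, read 9.60 and 9.41 in P6 CPN, against 7.59 and 7.60 in P3 CPN, a step of 1.91 ± 0.19 (adjusted p = 0.0402). Vim, an intermediate filament gene of progenitors and glia, read 7.71 and 8.24 in P6 CPN, against 9.55 and 10.26 in P3 CPN and did not pass (adjusted p = 0.144).

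In CSMN, Lypd1, a Ly6 family protein that binds nicotinic receptors, read 10.64 and 9.96 in P6 CSMN, against 7.86, 7.53 and 8.37 in P3 CSMN, a step of 2.38 ± 0.26 (adjusted p = 0.0338), and of 1.15 (adjusted p = 0.156) without probe sets marked for cross-hybridization. Abca1, a cholesterol exporter, read 8.67 and 8.87 in P6 CSMN, against 6.85, 6.61 and 7.03 in P3 CSMN, and Syt17, a synaptotagmin family gene, read 8.96 and 8.40 in P6 CSMN, against 6.76, 6.86 and 6.64 in P3 CSMN. Both rose in CSMN, by 1.94 ± 0.23 and 1.93 ± 0.20 (adjusted p = 0.0355 and 0.0282), and in CPN gave -0.41 ± 0.25 and -0.10 ± 0.22. Abca1 is also expressed by microglia, whose markers were highest in replicate 2 of P6 CSMN, and its P6 CSMN arrays differed by less than the ages did. The part of microglia in its value was not tested. With the mean of its probe sets Abca1 gave 0.72 (adjusted p = 0.0765) in CSMN. Rorb, a nuclear receptor of layer 4, read 8.75 and 8.96 in P6 CSMN, against 10.25, 10.39 and 10.02 in P3 CSMN and fell by 1.36 ± 0.16 in CSMN (adjusted p = 0.0355). Naa15, a subunit of the N-terminal acetyltransferase, and Megf11, an EGF-repeat protein, fell in CSMN by 1.21 ± 0.17 and 1.18 ± 0.16 (both adjusted p = 0.0458). With the mean of their probe sets Rorb gave -0.83 (adjusted p = 0.143) and Naa15 -0.51 (adjusted p = 0.143).

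No gene passed the test of the difference between the steps (limma interaction, 0% of genes), with 698 at an unadjusted p under 0.05 (3.84%) and 2 past it when the prior variance followed intensity. The 5 genes with the smallest p were Gpr6 at -2.54 ± 0.30, Itih3 at 1.25 ± 0.18, Nectin3 at -1.34 ± 0.20, Syt17 at 2.02 ± 0.30 and Abca1 at 2.35 ± 0.34 (CSMN minus CPN, adjusted p = 0.333 in each), followed by the potassium channel gene Kcnh5 (adjusted p = 0.346). The adhesion gene Nectin3 had a step of -0.76 in CSMN and 0.58 in CPN, and Kcnh5 one of -0.48 in CSMN and 1.62 in CPN. Arrays of the types moved apart without overlap, up in CSMN and down in CPN, in 280 genes (1.54%), and the other way in 187 (1.03%). Over all genes the steps correlated at 0.30 (Pearson) and 0.28 (Spearman), on arrays the types do not share, as a description across genes. Among the 88 called genes 53 had the larger step in CSMN, and 8 had an unadjusted interaction p under 0.05. The median SE of that difference in the 88 was 0.24, and differences several times that size did not pass, that of Gpr6 included.

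**Figure D3:**
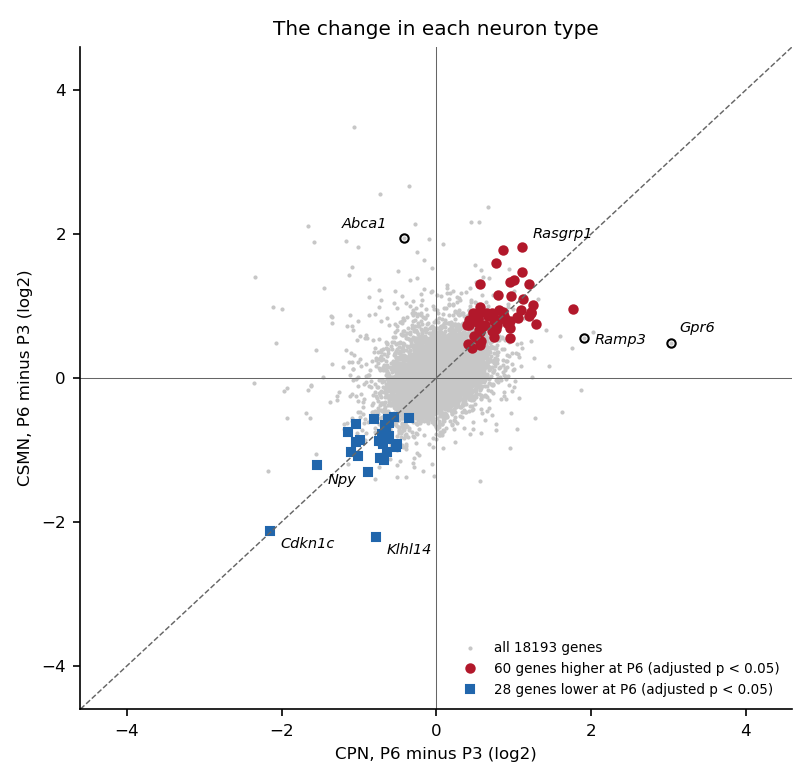
P6 minus P3 difference (log2) in CSMN (vertical) against that in CPN (horizontal), 1 point per gene, with called genes in red (60 higher) and blue (28 lower), Gpr6, Ramp3 and Abca1 ringed, and equal change on the dashed line. Cdkn1c lies on the line at the lower left, Klhl14 lies toward CSMN, and Gpr6 lies far to the right with 3.04 in CPN.

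The called genes were then read on the P14 and E18 arrays of the same types, 8 arrays that the P6 and P3 values do not use. Over that interval 1336 genes were higher at P14 (7.34%) and 635 lower (3.49%). Replicate 2 of P14 CSMN had the widest difference of 3' and 5' Gapdh control probes in the series, at 3.08. In replicate 1 of P14 CSMN it was 1.74. The part of RNA length in the P14 values was not tested. Of the 60 genes that rose between P3 and P6, 44 (73.3%) were called higher at P14 than at E18, none was called lower and 16 did not pass, and the 44 are 3.29% of the 1336. Of the 28 that fell, 16 (57.1%) were called lower, none higher and 12 did not pass, and the 16 are 2.52% of the 635. The median P14 minus E18 difference was 2.53 in the 60 and -1.72 in the 28, beside -0.01 over all genes. Differences above 0 were found in 57 of the 60, beside 48.2% of all genes, and differences below 0 in 27 of the 28. The counts at P14 and E18 ran from 1027 to 3037 without 1 array, the highest without replicate 2 of P14 CSMN.

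Rasgrp1 and Cck had the largest rises there, at 5.90 and 5.57, and Sox11 the largest fall, at -5.18 (limma adjusted p = 1.31e-06, 6.04e-05 and 4.44e-06). Slc12a5 read 12.70 and 12.78 in P14 CPN and 13.10 and 12.10 in P14 CSMN, against 8.97 and 9.14 in E18 CPN and 9.73 and 9.17 in E18 CSMN. Sox11 read 7.82 and 7.84 in P14 CPN and 7.91 and 8.17 in P14 CSMN, against 12.99 and 13.59 in E18 CPN and 12.73 and 13.15 in E18 CSMN. Its P6 values thus lay between, far closer to E18 than to P14. Group means rose at each of the 3 steps between E18 and P14 for 37 of the 60 genes in CPN and 41 in CSMN, and fell at each for 11 and 10 of the 28, counts in which the middle step was fixed by the choice of genes.

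Some genes had their highest mean at P6. In both types this held for 9 of the 60: Slc17a6, Gjd2, Gpc5, Trpa1, Anxa3, Cd83, Tspan2, Retreg1 and Smc5, listed after their values were seen. The 60 genes were chosen for high P6 values, which favours such a count, and the share over all genes was not counted. The peak of Cd83 in CSMN was slight, with means of 8.09 at P6 and 8.08 at P14. Slc17a6 read 8.98 and 8.79 in P14 CPN and 7.53 and 6.25 in P14 CSMN, against 8.38 and 9.13 in E18 CPN and 5.57 and 5.60 in E18 CSMN (0.72, adjusted p = 0.269). The CPN arrays of Slc17a6 at P14 lay below those at P6. In CSMN replicate 1 of P14, at 7.53, lay between the P6 arrays at 7.68 and 7.29. The lower P14 mean in CSMN rested on replicate 2, at 6.25, the array with the widest Gapdh difference. Slc17a7 differed in that it stood highest at P14. Gjd2 read 7.16 and 6.89 in P14 CPN and 5.68 and 5.04 in P14 CSMN, against 6.21 and 6.94 in E18 CPN and 5.94 and 6.36 in E18 CSMN, all below its P6 values. Npy, which fell between P3 and P6, gave -0.59 over the longer interval (adjusted p = 0.553).

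**Figure D4:**
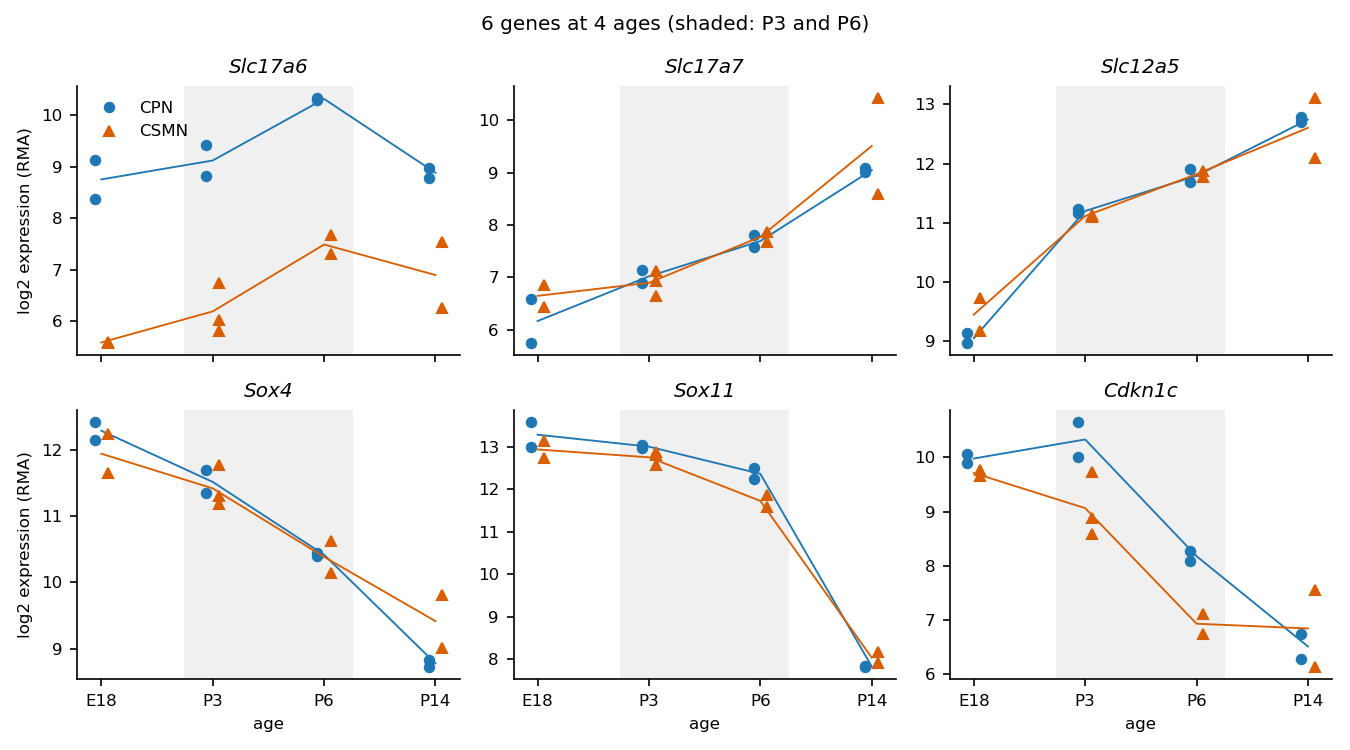
Log2 expression (RMA, vertical axis) of 6 genes by age (horizontal axis), 1 point per array, circles for CPN and triangles for CSMN, with lines through group means and P3 and P6 shaded. By group means Slc17a7 and Slc12a5 stand highest at P14 and Slc17a6 at P6, with a P14 CSMN array of Slc17a6 between the P6 CSMN arrays. Sox4, Sox11 and Cdkn1c lie lower at P6 than at P3.

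**Figure D5:**
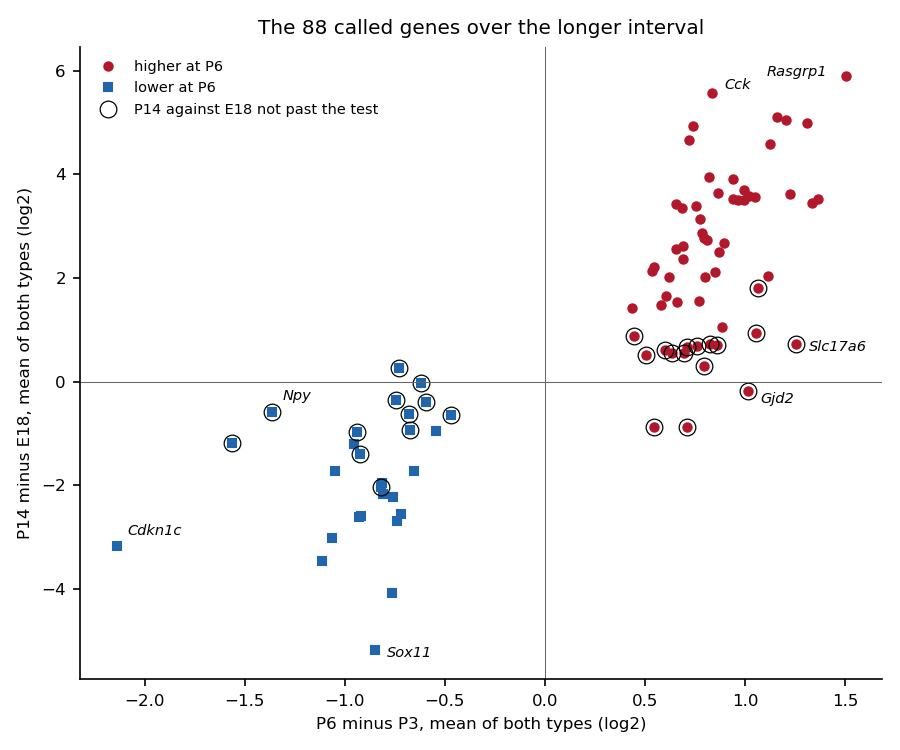
P14 minus E18 difference (vertical, log2) against P6 minus P3 difference (horizontal, log2) of the 88 called genes, both as the mean of the types, with genes not past the test for P14 against E18 ringed. Of the 60 genes that rose, 57 lie above 0 on the vertical axis, and of the 28 that fell, 27 lie below 0.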

How the data were processed

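The authors deposited log2 expression values per probe set made with RMA, per the submitters' processing notes, which give no version; the annotation of the arrays and the software are not given in the sources used here. RMA corrects background, sets all arrays to one distribution and summarises probes, so a shift shared by most genes cannot be seen. Of 45101 probe sets, 64 were controls, 34945 had 1 symbol, 932 several and 9160 none in the platform annotation. RefSeq entries were found by gene identifier for 34741, and 0 symbols changed. A gene was its brightest probe set by the mean over all 19 arrays. limma 3.58.1 in R 4.3.3 (lmFit, eBayes, two-sided, Benjamini-Hochberg over all 18193 genes, threshold 0.05) was fitted to 9 arrays with stage and neuron type (6 residual and 3.66 prior degrees of freedom), to 4 group means for single types and the interaction, and to 8 arrays for P14 against E18. No filter on dim genes was used. The few arrays limit the precision. The models were tested on simulated data.

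Named genes were, per direction, the 14 largest differences past the test without overlap between ages in both types, up to 4 called and 3 further members of each of 34 lists (812 of 894 listed genes measured), and for single types and the interaction up to 6 called or the 3 smallest p-values. Members and lists were chosen with earlier results of these data known. The main models did not pair arrays by replicate number. Deviations of same-numbered arrays correlated at -0.22 in CPN and -0.07 and 0.08 in CSMN. With so few arrays these values cannot settle whether the numbers pair the samples. Figures were drawn with matplotlib 3.10.9 in Python 3.11.15. Probe sets marked for cross-hybridization were taken as those ending in _x_at, _s_at or _a_at, the last a mark for several transcripts of a gene. Alternatives were other normalizations, probe set choices, filters, variance models, array sets, a replicate block and leaving out each array.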

Additional observations from a re-analysis of the deposited data

Results flagged for a closer look

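A few probe sets that the comparisons of genes do not use passed the test, a smaller share than among all probe sets. Of 10092 probe sets with no symbol or several, 4 passed the same limma test between P6 and P3 (3 higher, 1 lower), which is 0.0396% of them, beside 0.12% of all 45037 probe sets. They differed by 0.96, 0.96, 0.60 and -0.67 (adjusted p = 0.0201, 0.0355, 0.0433 and 0.0383). They are not named here. Groups of 2 and 3 arrays are too small for a test of single outlying arrays.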

How the results depend on the processing

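The direction of the 28 leading named genes held under all 20 alternatives in every gene that could be fitted, except that Elf2 became 0.0540 and Gjc1 0.122 without probe sets marked for cross-hybridization. Over both types 88 genes were called, against 144 with quantile normalization, 140 with cyclic loess, 355 with array weights, 21 with an absolute difference of at least 1, 12 in the model of all 19 arrays, 3 with no neuron type in the model, and 0 to 175 without single arrays. The share of calls that were higher stayed within 60.6% to 77.8% where calls numbered over 20, and was 91.7% in the model of all 19 arrays, with 12 calls, beside 68.2% among the 88. The CPN count of 2 became 5, 10, 7, 5 and 5 with quantile, loess, the brighter genes, mean probe sets and the intensity trend, 1 in the model of all arrays, and 0 to 132 without single arrays. The CSMN count of 29 became 44, 60, 12, 49, 614 and 5 with quantile, loess, mean probe sets, the intensity trend, array weights and the model of all arrays, and 0 to 130 without single arrays. The interaction count of 0 became 2 with the intensity trend and 0 to 35 without single arrays, 35 without replicate 2 of P6 CPN. The P14 against E18 count of 1971 became 5056 with array weights, 4470 in the model of all arrays and 1027 to 3037 without single arrays. Whether replicate numbers pair these samples was not settled. With a replicate block the counts were 0 over both types, 0 in CPN, 0 in CSMN and 0 in the interaction, and 1873 for P14 against E18. Over both types 1859 genes then had an unadjusted p under 0.05. With the numbers of CPN crossed, chosen after seeing the data, 5 genes were called in CPN. Slc12a2, near 0, became -0.276 with mean probe sets, -0.0406 with array weights, -0.0493 with the replicate block and -0.0493 to 0.0897 without single arrays, the lowest without replicate 3 of P3 CSMN. The cause of these moves was not tested. With mean probe sets Igfbp4, Nell1, Slc24a2, Cx3cl1, Gjd2 and Ttc28 moved by over 1.5 times and still passed, at 0.82, 0.66, 0.65, 0.52, 0.55 and -0.65, while Tuba4a, Klhl14 and Cdh4 became 0.44, -1.56 and -0.77 and did not (adjusted p = 0.0769, 0.0563 and 0.0563). The ribosomal count of 18 stayed between 17 and 22. Other probe sets of the called genes, 107 in 52 genes, had the same sign in 85.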
